A study of Mus musculus with 2 samples.

Results

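RNA helicases with Ddx and Dhx symbols, SR proteins and heterogeneous nuclear ribonucleoproteins (hnRNPs) were followed in CT26 mouse colon carcinoma cells after knockdown of CDK8. They were taken as every gene of the deposited intensity table whose symbol begins with Ddx or Dhx and a digit, Srsf or Sfrs and a digit, or Hnrnp, leaving out Ddx58 and Dhx58. The families were chosen by their symbols with the differences between these arrays already known, so their values are a description and support no test. This gave 79 genes of 30712 on the array: 35 with a Ddx symbol, 15 with a Dhx symbol, 18 with an Sfrs symbol and 11 with an Hnrnp symbol. The control culture was CT26 transduced with the empty hairpin vector pLKO.1, and the other carried pLKO.1-shCDK8, the same vector with a hairpin against CDK8, a kinase of the Mediator complex. Total RNA of each was hybridised to an Illumina MouseWG-6 v2.0 bead array. Each group had 1 array, so no spread between cultures could be estimated, no p-value is given, and precision is limited by the number of arrays. The labels do not say whether a single clone or a pool of transduced cells was used. In such bulk RNA, fewer cells of a type and less RNA per cell cannot be told apart.

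RNA helicases of the DEAD-box (Ddx) and DEAH-box (Dhx) classes use ATP to unwind RNA or to strip proteins from it, and they act in splicing, ribosome assembly, mRNA export and translation. SR proteins bind exons through RNA recognition motifs and recruit the splicing machinery through domains rich in arginine and serine. The hnRNPs coat nascent transcripts, and several of them oppose SR proteins at splice sites. All of these families are present in nearly every cell type, and many of their genes adjust their own mRNA through splicing.

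The symbols of the array design are old, and not every one names a gene of these families today. Of the 18 Sfrs symbols, 9 now name an Srsf gene. The other 9 name Tra2b (Sfrs10), an SR-like splicing activator, and Akap17b, Clasrp, Scaf4, Scaf11, Sfswap, Srek1, Srek1ip1 and Sugp2, which are not counted among the SR proteins. Ddx26 and Ddx26b are now Ints6 and Ints6l, the first of them a subunit of the Integrator complex, which cleaves small nuclear RNAs. The pattern missed genes listed under Hnrp symbols without the second n, such as Hnrnpa1, and Bat1a, now Ddx39b. These are given below as other genes.

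Cdk8 itself was 3.96-fold lower on the knockdown array. Its 1 probe above background had raw intensities of 992.5 in the control and 317.9 in the knockdown, and 2 further probes were at background on both arrays. A probe counted as detected when its raw intensity exceeded the upper 1% of the background of its array, which lay at 94.5 for the control array and at 93.7 for the knockdown array. Total raw intensity was 14010077.7 and 14564527.9. Each difference below is the log2 value of the knockdown minus that of the control, averaged over the detected probes of a gene. Probes of 1 gene differed from each other by an SD of 0.22, pooled over 4570 genes, which corresponds to 1.16-fold. This SD describes probes on the same arrays, not cultures. Of the epithelial markers, 4 of 11 were detected on both arrays, while Krt18, Krt19, Epcam and Vil1 were not detected, so few defining markers of colon epithelium were measured. Those 4 had differences of -0.94 (Krt20), -0.93 (Cdx2), -0.14 (Cdh1) and 0.10 (Cldn7). Of 10 fibroblast markers 7 were detected on both arrays, 5 above and 2 below 0, from -1.003 for Pdgfrb to 1.41 for Col1a1, and 2 were at least 1.5-fold higher and 2 at least 1.5-fold lower. Of the other marker lists, 3 of 9 of leukocytes and 2 of 7 of endothelium were detected on both arrays, and Ptprc and Pecam1 were not detected. The detected leukocyte markers differed by -0.39 (Cd68), -0.01 (Cd14) and -0.01 (Csf1r). Those of endothelium differed by 0.26 (Kdr) and 0.24 (Eng). Cd14 was bright, at log2 9.68 in the control and 9.66 in the knockdown, while Csf1r, Kdr and Eng were near background. The part of other cells in the values below was not tested.

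No member detected on both arrays differed by 1.5-fold in either direction. These were 69 of the 79 genes, and their differences lay between -0.44 and 0.36, the larger being 1.36-fold. Over all 13457 genes detected on both arrays, 2.06% were at least 1.5-fold higher and 2.2% at least 1.5-fold lower, so a share like that of all genes would be between 1 and 2 members in each direction. Differences under 1.2-fold were seen in 60 of the 69 members (86.96%), against 74.6% of all genes. By more than the SD between probes, 14 members were lower and 3 higher, while 17.2% of all genes were lower and 16.5% higher. Median scaling in place of quantile normalization moves all genes upwards, and these counts were then 6 members lower and 7 higher, beside 1747 lower and 2990 higher of the 13457 genes. For members detected on both arrays, the absence of 1.5-fold differences held under each alternative tried.

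**Figure D1:**
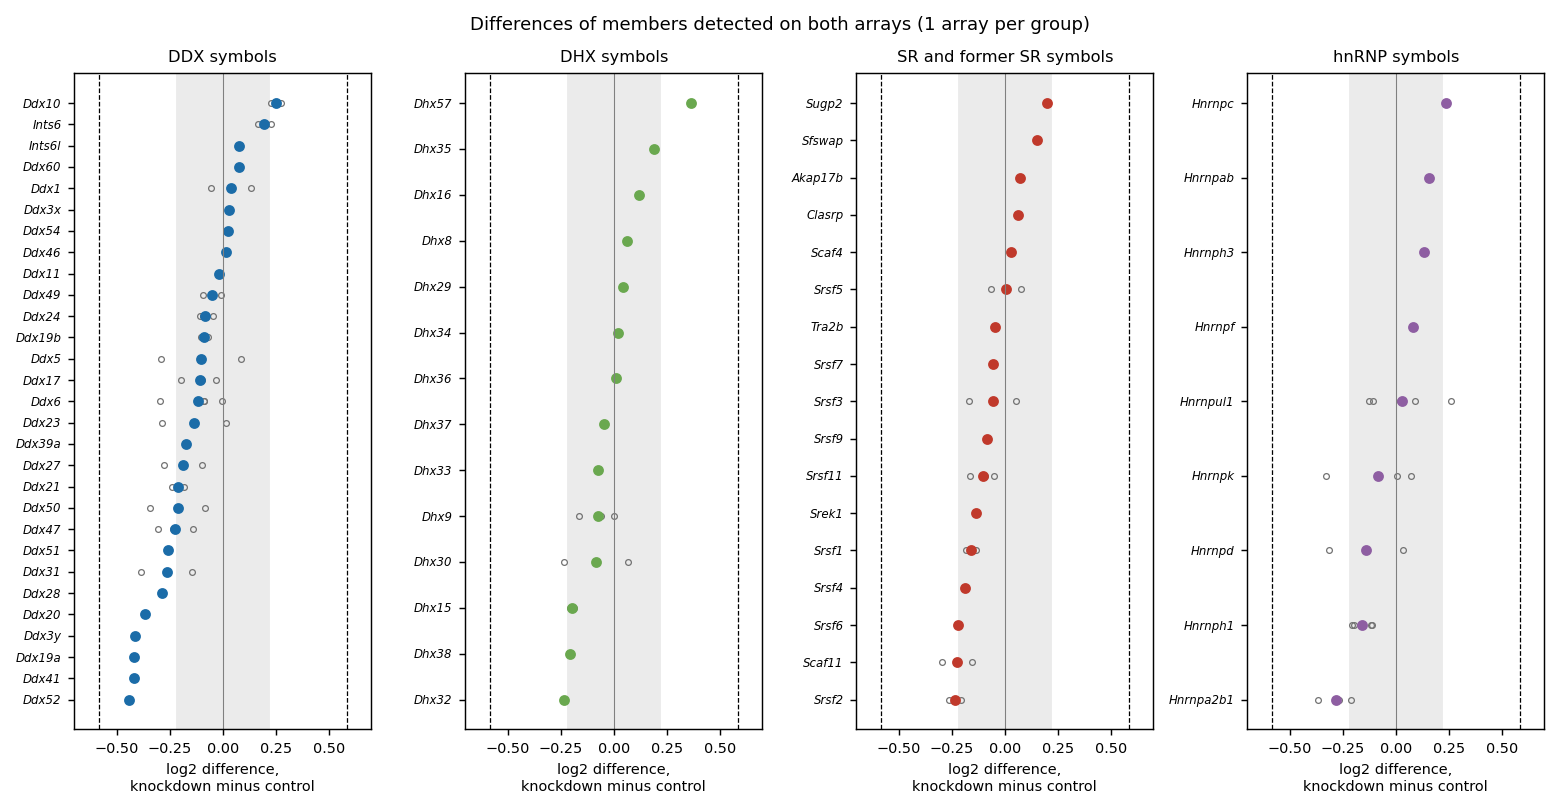
Log2 difference, knockdown minus control, of the 69 members detected on both arrays, in a panel per family. Filled points are gene means over detected probes, open points the single probes, the grey band is the SD between probes of 1 gene (0.22) and dashed lines mark 1.5-fold; all filled points lie between the dashed lines.

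The members' median difference was -0.08, against 0.00 for all genes, and 43 of 69 (62.32%) lay below 0 against 50.8% of all genes. Under median scaling the median of all genes moved to 0.04 and that of the members to -0.02, so the distance between them was -0.07 where it had been -0.08. Across the 6 normalizations, 36 members stayed below 0 and 24 above 0, and 9 changed sign. All 6 start from the same arrays, and this count was not made over all genes. The medians by family were -0.12 for the 29 Ddx genes, -0.02 for the 14 Dhx genes, -0.06 for the 17 Sfrs genes and 0.03 for the 9 hnRNP genes. Under median scaling those of the Dhx and Sfrs genes turned positive, at 0.05 and 0.03. The hnRNP median was -0.024 when only probes above 2 times the background were used and -0.0351 for 17 hnRNP genes taken by current symbol. Among genes with a mean log2 value from 8 to 10, 16 of 20 members lay below 0, against 52.3% of all 2741 such genes. The median of these members was -0.20, where that of all such genes was -0.01. Below 0 were 6 of 10 members with a value under 6, against 50.4% of all such genes. The counts were 14 of 26 from 6 to 8 and 7 of 13 above 10, against 49.4% and 53.2%.

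**Figure D2:**
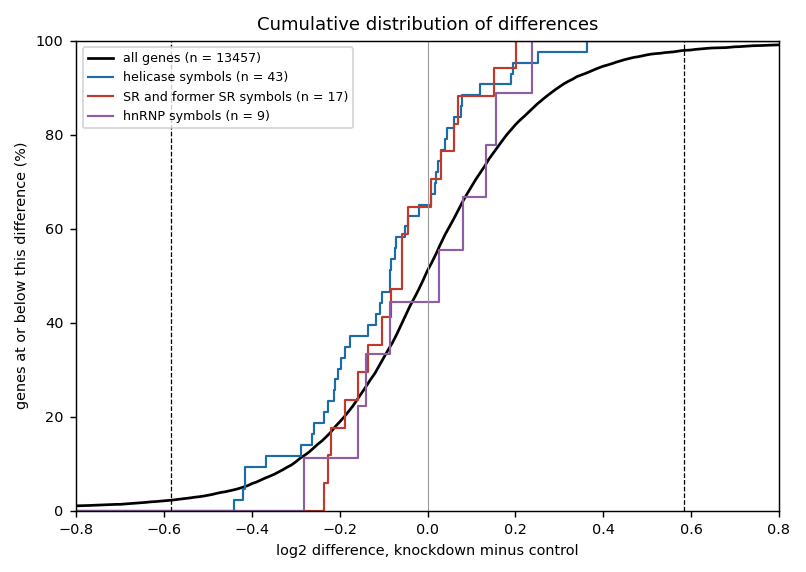
Share of genes, in percent, at or below each log2 difference (knockdown minus control), for all 13457 genes detected on both arrays (black), the 43 helicase symbols, the 17 SR and former SR symbols and the 9 hnRNP symbols. The helicase curve lies left of that of all genes around 0, and no family reaches the dashed 1.5-fold lines.

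Helicases linked to ribosome assembly lay mostly below 0. Of 16 listed, 13 were detected on both arrays, and 11 of these were below 0 with a median of -0.19. With median scaling 8 of the 13 were below 0, beside 5610 of all 13457 genes, and the median was -0.13. Its distance from the median of all genes was then -0.17, where it had been -0.18. Ddx52 had the lowest difference of the members detected on both arrays. Its single probe had raw intensities of 1078.2 (control) and 851.3 (knockdown), and the difference was -0.44. Srek1ip1, detected in the control only, was at -0.4459. It was the lowest member under a detection limit of 5% and with no filter on dim probes. Ddx47, a helicase of early ribosomal RNA processing, was read by 3 probes that all lay below 0, between -0.31 and -0.14. Both probes of Ddx21, a nucleolar helicase that also occupies ribosomal DNA, were below 0 at -0.24 and -0.18. Its paralog Ddx50 had a mean of -0.21, with probes at -0.34 and -0.08, both not far above background. Ddx31, Ddx51 and Ddx27 differed by -0.26, -0.26 and -0.19. Ddx10 lay on the other side, with 0.23 and 0.28 at its 2 detected probes, whose raw intensities ran from 118.5 to 194.7. Ddx54, Ddx24, Ddx49, Dhx33 and Dhx37 were within 0.1 of 0. Ddx55 and Ddx56 were not detected.

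Helicases of the spliceosome showed no common direction. Of 12 listed genes, 10 were detected on both arrays, 5 below and 5 above 0, with a median of -0.06. The list holds Ddx39b, which is no member and was at 0.16, with probes at 0.13 and 0.19. Ddx41, a DEAD-box protein found in spliceosomes and also described as a sensor of DNA in immune cells, was lowest. Its probe read 1198.5 in raw intensity on the control array against 960.2 on the knockdown array, and it differed by -0.42, which is 1.34-fold lower. Dhx15, which takes apart spent spliceosomes, was read by 2 probes at -0.21 and -0.19. Dhx38, the mammalian Prp16, which remodels the spliceosome between its catalytic steps, differed by -0.20. On the other side lay Dhx35 at 0.19, Dhx16 at 0.12 and Dhx8, the counterpart of yeast Prp22 in mRNA release, at 0.06. Ddx46 (Prp5) was at 0.02. Ddx23 of the U5 particle had a mean of -0.14 from 2 dim probes at -0.29 and 0.01. Dhx32 differed by -0.24, the lowest value of a Dhx gene. Ddx42 was not detected.

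Of 5 helicases with roles in transcription and microRNA processing, 4 lay below 0. Their median was -0.10, and Ddx20 was lowest. Ddx20 (Gemin3), a partner of SMN in assembling small nuclear ribonucleoproteins, had raw intensities of 745.9 and 629.1 and a difference of -0.37. Ddx5 and Ddx17 are paralogous cofactors of transcription and of the Drosha complex. Ddx17 averaged -0.11. Its bright probe was at -0.20 (raw 4105.8 and 3839.3), and 2 probes were close to background. Ddx5 had a mean of -0.10 from probes of opposite sign. The probe detected on both arrays was at 0.09, and the other, detected in the control only, was at -0.29. Its mean therefore holds a value not above background. Dhx9, a nuclear helicase that binds RNA polymerase II, differed by -0.07, with its brightest probe at -0.16 and 2 others close to background. Ddx1 differed by 0.04.

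Export and cytoplasmic helicases were spread from -0.42 to 0.04, with 5 of 8 below 0. Ddx19a differed by -0.42, with raw intensities of 184.5 and 160.5, and its close paralog Ddx19b, both of them mRNA export factors of the nuclear pore, by -0.09. Probes of such paralogs can read each other's transcripts, so the values are not certain to be separate. The same holds for the X- and Y-linked pair of translation helicases. Ddx3x differed by 0.03, and Ddx3y by -0.41 from 1 of its 3 probes (raw 219.4 and 189.1), the others being at background. Ddx6, a decapping and repression factor of P-bodies, had 4 detected probes, all from -0.29 to 0.00. Dhx29 and Dhx36, which act in translation initiation and on G-quadruplexes, differed by 0.04 and 0.01. Ddx39a, close to background, was at -0.18. Ddx4, the germline helicase Vasa, was not detected. Of the mitochondrial helicases, Ddx28 differed by -0.29 and Dhx30 by -0.09, or -0.24 at its bright probe.

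Dhx57, a helicase of poorly known role, had the highest difference of the members detected on both arrays. Its bright probe had raw intensities of 199.3 and 247.0, a difference of 0.36, and its other probe was not detected. With that probe averaged in, as under a detection limit of 5% or with no filter on dim probes, Dhx57 was at 0.16 and no longer the highest. Ddx10 at 0.25 was then highest under the first setting and Hnrnpc at 0.24 under the other. Dhx34, a factor of nonsense-mediated decay, was at 0.02, and Ddx11, a DNA helicase of sister chromatid cohesion, at -0.02. Ddx60 and Ints6l were both at 0.08.

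**Figure D3:**
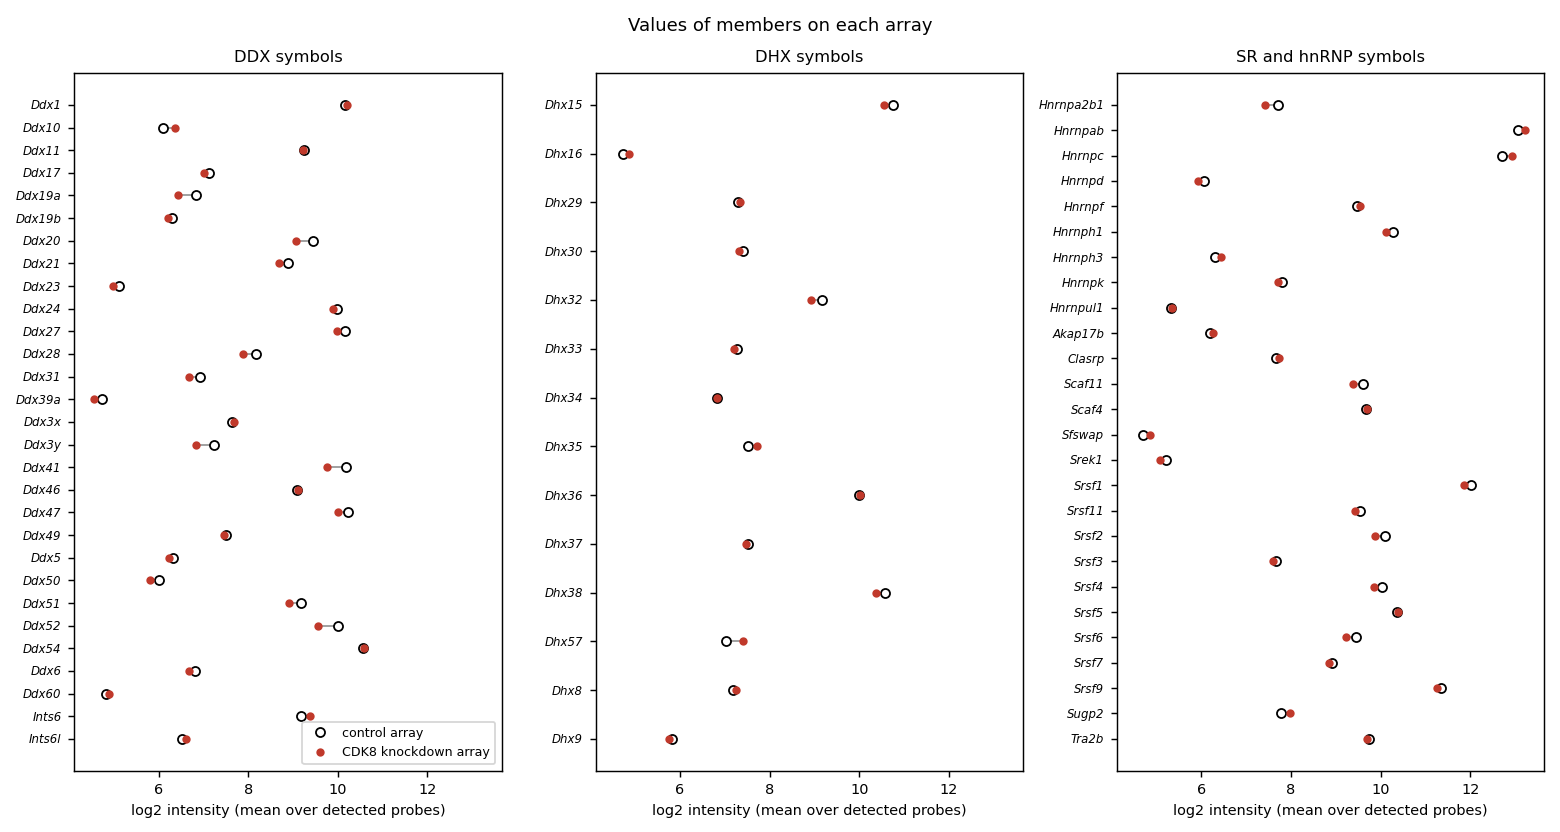
Log2 intensity of the 69 members that both arrays detected. Open circles are the control array and red points the CDK8 knockdown array, joined by a line per gene. The arrays lie close together for every gene; Ddx52, Ddx41, Ddx19a and Ddx3y show the widest gaps towards lower and Dhx57 the widest towards higher knockdown values. Levels of different genes come from different probes and are not comparable.

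The 9 Srsf genes among the members were all detected on both arrays, and 8 of them lay below 0. With Srsf10, listed as Fusip1, the count for SR proteins was 9 of 10 below 0 and the median -0.10. Under median scaling 7 of 10 were below 0, beside 5610 of all 13457 genes, and the median was -0.04. Under cyclic loess 10 of 10 were below 0, beside 6830 of all 13457 genes. No gene of this list passed 1.2-fold. Srsf2 (SC35), a component of nuclear speckles, was lowest at -0.24, and its 3 probes agreed between -0.26 and -0.21. The brightest of them had raw intensities of 5731.0 in the control and 5013.5 in the knockdown. Srsf6 differed by -0.22 (raw 748.1 and 690.7) and Srsf4 by -0.19 (raw 1096.3 and 1013.1). Srsf1 (SF2/ASF), the founding member of the family, differed by -0.16, with both probes below 0 at -0.18 and -0.14. Srsf11 lay at -0.10, Srsf9 at -0.08, Srsf7 at -0.06 and Srsf3 at -0.06, the last with probes of opposite sign. Srsf5 was at 0.01.

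Of the former SR symbols detected on both arrays, Scaf11 was lowest at -0.23, with both probes below 0. Srek1 was at -0.14 and Tra2b at -0.04. Sugp2 was highest at 0.20 (raw 284.8 and 332.6), followed by Sfswap at 0.15, a value close to background, Akap17b at 0.07, Clasrp at 0.06 and Scaf4 at 0.03. Srek1ip1 was detected in the control only, by 1 probe close to background with raw intensities of 100.5 and 92.5. After background correction it was at least 1.2958-fold lower on these arrays, a bound that carries no estimate of error. This bound sets its control value against the lowest detected value of the knockdown array.

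The hnRNP genes fell on both sides of 0. Hnrnpc, a binder of uridine tracts that packages nascent RNA, was highest at 0.24, with raw intensities of 6611.3 and 8217.9. Hnrnpab followed at 0.16 (raw 8431.4 and 9959.4). Probes under the older symbols Hnrpc and Hnrpab, matched as synonyms only and not averaged in, were at 0.07 and -0.08. Hnrnpa2b1, which like Hnrnpa1 represses exons, was lowest at -0.28. Its probes detected on both arrays were at -0.27 (raw 3345.2 and 2938.2) and -0.21, and another, at -0.37, was detected in the control only. All 4 probes of Hnrnph1, a binder of guanine runs, were below 0, from -0.21 to -0.11. Its relatives Hnrnpf and Hnrnph3 were at 0.08 and 0.13. Hnrnpd (AUF1), an mRNA decay factor, had a mean of -0.14 from probes at -0.31 and 0.04. Hnrnpk was at -0.08 from 3 probes. Those under its own symbol were at 0.07 and 0.00, and the one listed as Hnrpk, joined by gene number, was at -0.33. Hnrnpul1 was at 0.03 from 5 probes of mixed sign, of which the highest, at 0.26, was not detected in the control. Hnrnph2 was detected in the knockdown only, at the limit of detection, and Hnrnpr was not detected.

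Several hnRNPs carry older symbols in the table and are not counted above. Hnrnpa1 differed by -0.28, with 3 detected probes between -0.39 and -0.17, and Hnrnpdl by -0.27, with probes from -0.54 to -0.06. With these, 5 of the 6 A/B and D type hnRNPs detected on both arrays were below 0 and the median was -0.20. Hnrnpa3, the other gene of that list, was detected in the knockdown only (raw 93.5 and 100.6). With median scaling 4 of 6 were below 0, beside 5610 of all 13457 genes. Hnrnpu, near background, differed by -0.25, Hnrnpm by -0.04, Hnrnpl by -0.02, Hnrnpa0 by -0.03 and Hnrnpll by 0.09. Hnrnpa1 has many processed pseudogenes, and its probes may read their transcripts.

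Hnrnpc and Ints6 both lie on chromosome 14. The median over the 353 genes of this chromosome was 0.21, and 79.9% of them were above 0. Their differences of 0.24 and 0.20 are close to that median. Medians of the other autosomes lay between -0.07 and 0.06. Outside chromosome 14, the median of 67 members was -0.08. The part of the chromosome in these 2 values was not tested.

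Promoter sequence was the feature available for the members that the symbols did not use. RefSeq windows of build GRCm38.p6, from 250 bases before to 50 after a start site, were found for 74 members (100 windows). Motifs were searched on both strands. The TATA box was searched as TATAAA and the CCAAT box by the letters of its name. The GC box was searched as GGGCGG. For the core of ETS factor sites the letters were CCGGAAG. None of these contains another. A GC box was present in 68.0% of member windows, in 62.8% of the 10417 windows of genes detected on both arrays and in 35.7% of all 32851 windows. The ETS core was present in 35.0%, 17.7% and 8.86%, the CCAAT box in 44.0%, 37.9% and 37.4%, and the TATA box in 9.0%, 7.33% and 13.6%. Median GC content was 61.7% in member windows and 60.7% in those of detected genes. These matches are descriptions of letters and not of binding.

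Among members detected on both arrays, the lowest 2 of all and the lowest 4 Srsf genes were taken as those furthest below 0. The 150 bases before their starts are shown, with motif matches in capitals. They lie at chr11:83941940-83942089 on the plus strand, chr13:55536659-55536808 on the minus strand, chr11:116853095-116853244 on the minus strand, chr2:162931358-162931507 on the plus strand, chr4:131873487-131873636 on the plus strand (the first of 3 windows) and chr11:88047223-88047372 on the plus strand.
Ddx52: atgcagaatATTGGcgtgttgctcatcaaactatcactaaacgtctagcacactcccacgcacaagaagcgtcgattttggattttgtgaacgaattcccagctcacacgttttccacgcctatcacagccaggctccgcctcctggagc
Ddx41: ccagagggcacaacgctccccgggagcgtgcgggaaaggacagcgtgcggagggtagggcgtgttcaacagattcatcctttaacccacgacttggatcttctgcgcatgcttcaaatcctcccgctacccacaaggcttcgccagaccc
Srsf2: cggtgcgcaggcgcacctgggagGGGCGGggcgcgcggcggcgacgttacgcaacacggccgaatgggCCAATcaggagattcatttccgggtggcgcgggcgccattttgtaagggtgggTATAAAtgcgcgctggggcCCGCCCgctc
Srsf6: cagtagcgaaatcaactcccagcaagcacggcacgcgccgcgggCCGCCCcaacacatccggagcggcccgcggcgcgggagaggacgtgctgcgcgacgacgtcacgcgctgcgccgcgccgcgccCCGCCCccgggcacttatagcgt
Srsf4: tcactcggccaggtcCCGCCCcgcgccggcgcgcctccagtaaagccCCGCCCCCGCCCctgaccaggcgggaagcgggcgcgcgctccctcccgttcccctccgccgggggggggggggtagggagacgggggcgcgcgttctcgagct
Srsf1: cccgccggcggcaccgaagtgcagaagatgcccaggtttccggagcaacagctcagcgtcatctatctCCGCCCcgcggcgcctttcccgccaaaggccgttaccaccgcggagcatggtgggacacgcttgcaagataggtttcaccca
GC boxes occur before all 4 Srsf genes, and the Srsf2 stretch also holds a CCAAT box and a TATA box. The Ddx52 stretch holds a CCAAT box, read on the opposite strand, and that of Ddx41 none of the 4 motifs.

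Probes of 1 member mostly pointed the same way. Of 29 members with at least 2 detected probes, 17 had all probes below 0, 2 had all above 0 and 9 had probes of opposite sign (31.0%), against 43.3% of 4508 genes on the whole array. In none of these 29 members were opposite probes both beyond the SD between probes, against 272 of the 4508 genes. The pooled SD between probes of the members was 0.12. The other 40 members detected on both arrays rest on 1 probe. Ddx25, Ddx59 and Dhx40 were detected in the knockdown only and, like Hnrnph2, sat at the limit of detection, where no fold can be given.

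Other genes of RNA processing were likewise close to 0. The core spliceosome had a median of -0.06 over 30 genes, 22 of them below 0. Under median scaling 17 were below 0, beside 5610 of all 13457 genes. Lowest in the list was Prpf3 of the U4/U6 particle at -0.36, with 5 probes all below 0, followed by Snrpg at -0.25. The SR protein kinases and partners, a list that shares Tra2b and Srek1 with the members, had a median of -0.03 over 14 genes. Srpk1, a kinase that phosphorylates SR proteins, differed by -0.32 (log2 10.25 and 9.93), Srrm1, a splicing coactivator, by -0.24, Srpk2 by -0.20 and Clk4, another kinase of SR proteins, by -0.20. Of the 14 genes, 6 lay above 0. Splicing regulators of other families had a median of -0.02 over 26 genes and held the only gene of these lists past 1.5-fold. This was Ptbp3, a polypyrimidine tract binder, at -0.59 from 1 probe near background on both arrays (log2 5.77 and 5.18). Elavl1 (HuR), a stabiliser of AU-rich mRNAs, was at 0.43, Taf15 at -0.30 and Celf2 at 0.29. RNA helicases with other names had a median of -0.01 over 15 genes, with Supv3l1 of mitochondria at -0.35, the exosome helicase Skiv2l at 0.23, Ythdc2 at -0.19 and Ascc3 at 0.15. Exon junction and export factors had a median of 0.04 over 18 genes, with the cap-binding subunit Ncbp2 at -0.38, Thoc7 at 0.28, Rbm8a at 0.24 and its partner Magoh at -0.23. Thoc7 lies on chromosome 14.

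**Figure D4:**
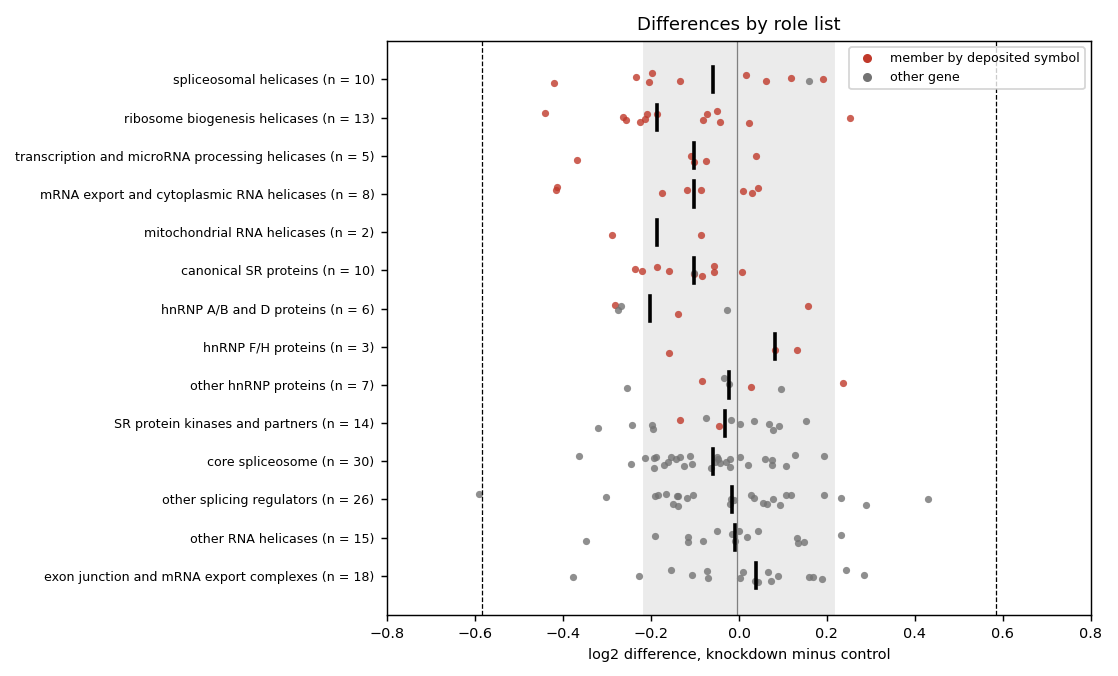
Log2 difference, knockdown minus control, of genes detected on both arrays in each list of RNA processing genes. Red points are members by deposited symbol, grey points other genes, black bars the list medians, the grey band the SD between probes (0.22) and dashed lines 1.5-fold; Ptbp3 at -0.59 is the only gene past them.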

How the data were processed

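Per the file headers, the deposited raw intensity values were exported with GSGX 1.9.0 with no normalization and no background subtraction, 1 value for each of 45281 probes and array. The second deposited table holds processed intensity values whose making, centring and scaling are not given in the sources used here, and it served as an alternative. The members, gene lists and rule for named genes were chosen with earlier results of these data known.

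The background level of an array was the peak of its dim probes (88.6 in the control, 88.0 in the knockdown), and values below the peak, mirrored, gave its SD. Detected were 46.2% and 47.3% of probes. The files hold no detection p-values, and this limit may be lenient. Raw values were background-corrected by normexp (limma 3.58.1, R 4.3.3), raised by 16, quantile normalized and set on the log2 scale. The offset pulls differences of dim probes towards 0.

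Probes were grouped into genes by Entrez number through a RefSeq table of GRCm38.p6, which held the number of 29586 of the 31508 probes with one. Other probes took the gene of numbered probes with the same symbol where it was unique, else the deposited symbol. Of 148 probes with a member symbol, 15 had no number. Differences between 2 arrays have no test. Named were Cdk8, the 6 highest and 6 lowest members per family, members detected on 1 array, and up to 4 genes per other list. Further members, hnRNPs with older symbols and cell type markers were named for their role. Protein features could not be computed without a protein table. The steps were also run on simulated arrays with known folds, in which all probes of a gene shared the same fold. That run checks the code and not the precision of the differences. Alternatives covered the offset, background, normalization, detection, probe choice and member rule.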

Additional observations from a re-analysis of the deposited data

How the results depend on the processing

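No paired analysis was possible because each group had 1 array. No member detected on both arrays reached 1.5-fold in either direction under any alternative that was run, or when members were chosen by current symbol. The lowest member difference ranged from -0.45 to -0.38 and the highest from 0.24 to 0.46. Of 671 member values under alternatives, 670 stayed within the SD between probes of the reported value. The exception was Ddx3y, at -0.18 with undetected probes averaged in. That limit is wide beside most reported differences, since 14 members were lower and 3 higher by more than it. A change of sign can lie within it, as for Ddx5, at -0.10 and at 0.09 with its brightest probe. The count therefore says little on how steady the small differences are. Median scaling, which moves the median of all genes to 0.04, put 7 members above and 6 below 0 at a distance over the SD between probes, beside 2990 and 1747 of all 13457 genes. It moved the medians to -0.0227 for all members, -0.0443 for helicases, -0.0754 for Ddx and 0.0519 for Dhx genes, and that of the Sfrs genes turned to 0.025. Among the other lists it gave 0.0266 for SR protein kinases and partners, -0.0105 for the core spliceosome, 0.0421 for splicing regulators and 0.10 for exon junction and export factors. Without background correction 7 members, and 1025 of all genes, were lower by more than that SD, and the medians were -0.0444 for all members, -0.0452 for helicases and -0.0657 for Ddx genes. With probes above 2 times the background the medians were -0.12 for helicases and -0.19 for Ddx genes, and 4 members had probes of opposite sign. Without a filter on dim probes 20 had them. The filter also changes how many members have more than 1 probe in use, so these counts are not comparable. They are given without a share over all genes. With the brightest probe of each gene the median was -0.0497 for all members and -0.0919 for splicing regulators. The current symbols, which leave out the former SR genes and add probes under clone names, gave -0.17 for 10 SR genes and -0.0351 for 17 hnRNP genes, which turned from 0.03. The cause of these shifts was not tested. Members near background, such as Ddx39a, Dhx16, Sfswap and Ddx60, carry the least certain values.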

Other observations

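A probe that the array lists under the clone name 9430065L19Rik, a synonym of Srsf7, read 2238.0 in raw intensity on the control array against 1731.8 on the knockdown array and differed by -0.44. The probe listed under Sfrs7 differed by -0.06. Such distances between probes of a gene are common. From lowest to highest probe, the median distance was 0.22 over 4508 genes with at least 2 detected probes. Among members it reached 0.40. A clone probe assigned to Srsf11 in the same way, 0610009J05Rik, differed by -0.36, where the probes under Sfrs11 lay between -0.16 and -0.05. A probe listed as Nssr, a synonym of Srsf10, was detected in the control only, with raw intensities of 101.4 and 91.1. The clone probe 2610528B01Rik, assigned to Hnrnpr, was detected on both arrays (raw 111.4 and 107.3), although the 3 probes under Hnrnpr were not. Other synonym probes detected on both arrays were at -0.17 for Ddx3x (Fin14), -0.26 for Hnrnph1 (Hnrph1), 0.03 for Ddx46, 0.01 for Ddx6 and 0.09 for Hnrnpl. Which transcripts these probes read is not given in the files. They were singled out after their values were seen.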
